A study of Rattus norvegicus with 10 samples.

Results

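The genes described here encode acute phase plasma proteins that the liver secretes, 10 in number: Crp, Orm1, Hp, Hpx, Lbp, Lcn2, Itih3, Itih4, Serpina3n and Saa4. They were taken by symbol from a table of liver isoforms, and the isoforms of a gene that match, lie within, share a junction with or overlap its reference transcripts were summed in each library. Of the 10 symbols, 9 had rows and all 9 entered the test, among 20700 genes formed in the same way and 11296 tested. Serpina3n was not analysed here under that symbol. Levels are given as FPKM, a measure in which fragments of a library are counted relative to transcript length and to the depth of that library.

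The acute phase response is the change in plasma proteins that the liver makes after infection, injury or surgery. Interleukin-6 acts through its receptor, gp130 and STAT3 in hepatocytes, together with interleukin-1 through C/EBP and NF-kB factors, and raises positive acute phase proteins while albumin, transthyretin and transferrin fall. In the rat the pattern differs from that in humans: C-reactive protein is present in plasma at rest, and alpha-2-macroglobulin, encoded by A2m, is the classical strong responder.

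Liver RNA came from diabetic wild-type Wistar rats, 5 libraries after sleeve gastrectomy (SG, removal of most of the stomach) and 5 after a sham operation (SHAM). All rats had eaten a diet with 60% of calories as fat for 4 weeks, then received 35 mg/kg of streptozotocin, a toxin of pancreatic beta cells, after a 16 h fast, and had a fasting glucose above 16.7 mmol/L 3 days later. They were allotted to the groups at random and matched by weight. Age, sex, feeding state and the hour at which livers were taken are not given in the sources used here, and rats without diabetes or without an operation were not analysed here. SG livers are labelled as taken 3 months after surgery and SHAM livers carry no time, so time and operation cannot be told apart. Whether each library stands for a separate rat is not stated in the labels, and p-values therefore cover only the spread among these 10 libraries, which may be technical. In a piece of liver, fewer hepatocytes and less messenger RNA per hepatocyte cannot be told apart.

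Promoter sequences are shown first for 3 genes, because Crp and Itih4 had the closest ranks across libraries of any pair of these genes and Lcn2 passed the test with none. Each is the 250 bases before the RefSeq start site in the GRCr8 build, 5' to 3' on the gene's own strand: Itih4 at chr16:6086735-6086984 (plus strand), Crp at chr13:87693812-87694061 (plus strand) and Lcn2 at chr3:36081781-36082030 (minus strand). Capitals mark matches to the STAT motif TTCNNNGAA or to CTGGGAA, the core of the STAT3 element of acute phase genes, searched on both strands.
Itih4: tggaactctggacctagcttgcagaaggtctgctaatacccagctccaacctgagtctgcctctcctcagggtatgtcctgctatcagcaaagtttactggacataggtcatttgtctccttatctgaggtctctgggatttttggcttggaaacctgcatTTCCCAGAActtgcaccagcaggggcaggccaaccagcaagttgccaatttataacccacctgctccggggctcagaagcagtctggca
Crp: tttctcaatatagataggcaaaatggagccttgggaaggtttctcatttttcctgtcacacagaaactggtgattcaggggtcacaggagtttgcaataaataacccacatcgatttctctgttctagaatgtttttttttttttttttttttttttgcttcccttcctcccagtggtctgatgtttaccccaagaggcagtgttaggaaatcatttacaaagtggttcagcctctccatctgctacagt
Lcn2: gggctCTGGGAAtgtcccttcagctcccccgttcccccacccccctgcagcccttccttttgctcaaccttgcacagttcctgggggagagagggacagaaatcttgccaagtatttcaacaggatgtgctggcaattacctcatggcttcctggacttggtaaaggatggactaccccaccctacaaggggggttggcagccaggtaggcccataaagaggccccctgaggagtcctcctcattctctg
The Itih4 window held TTCCCAGAA, whose first base lies 89 bases before the start and which also contains CTGGGAA read on the other strand. In the Lcn2 window CTGGGAA began 245 bases before the start. The Crp window held neither motif. RefSeq promoters were at hand for 6 measured members. Of these, 1 held TTCNNNGAA and 2 held CTGGGAA, and these 2 were the same as those with either motif; over all 33469 promoters of that length, 7.67% held the first, 9.56% the second and 15.7% either. The C/EBP motif TTNNGNAA stood in 5 of the 6, against 37.2% of all promoters, and an NF-kB motif, GGGA followed by any base and TTTCC, in 0 of 6, against 0.314%. A match is a run of letters and not a measured binding site, and a window without one says nothing about the factor.

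The 9 measured genes ranged from the most abundant messenger RNAs of the liver to a scarce one, and their order was fixed for some neighbours only. On the FPKM scale, which is per length of transcript, mean levels over the 10 libraries were 3146 for Hp, 2054 for Crp, 2016 for Hpx, 1075 for Itih4, 1055 for Itih3, 277 for Saa4, 246 for Orm1, 83.6 for Lbp and 2.68 for Lcn2. Hp exceeded Crp in 10 of 10 libraries, whereas Crp exceeded Hpx in 7 of 10, Itih4 exceeded Itih3 in 5 of 10 and Saa4 exceeded Orm1 in 7 of 10, so these 3 neighbouring pairs had no fixed order. Among the 11296 tested genes Hp ranked 19 by mean FPKM and Lcn2 ranked 8404. Together the 9 genes held between 1.81% and 3.07% of the summed FPKM of all genes, and the highest share was that of SG 2.

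**Figure D1:**
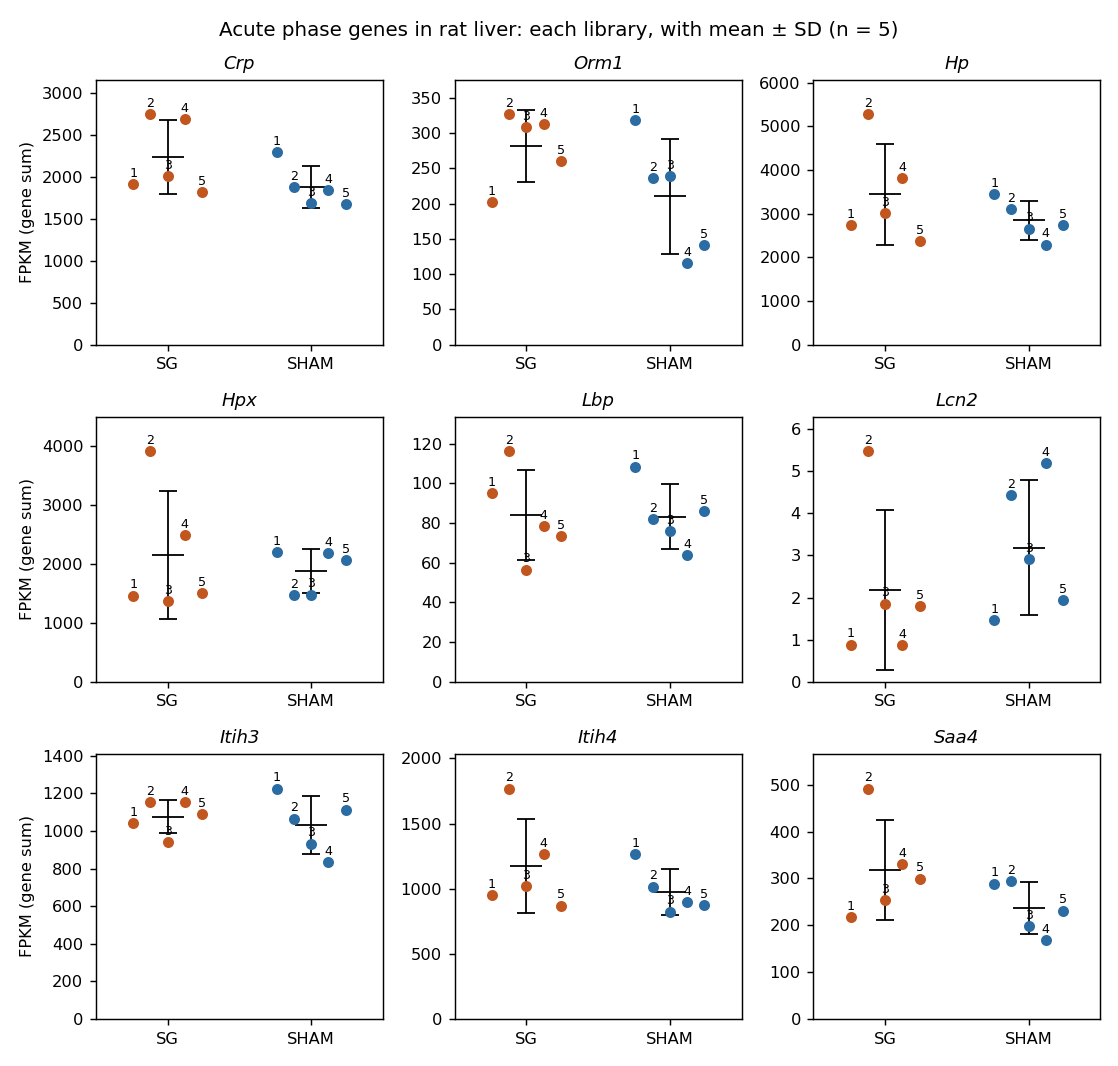
FPKM of the 9 measured acute phase genes, 1 panel a gene, with 1 point for each of the 5 SG and 5 SHAM libraries and a short line for each group's mean with its SD (n = 5). Numbers beside points are the library numbers, and each vertical axis starts at 0. The groups overlap in all 9 panels, and SG 2 is the highest point in 8 of them.

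No acute phase gene passed the test between SG and SHAM, and the ranges of the 2 groups overlapped for 9 of 9. Across all 11296 tested genes edgeR's quasi-likelihood test called 0.0% at an adjusted p of 0.05 and 4.53% at an unadjusted p under 0.05, 2.68% higher and 1.85% lower in SG. The FPKM of the groups did not overlap for 1.31% of all tested genes, with SG higher for 1.27% and lower for 0.0443%. None of the 9 genes reached an unadjusted p under 0.05 in edgeR, in DESeq2 or in limma on FPKM, where DESeq2 gave such a p for 5.63% and limma for 6.37% of all tested genes. Estimates were positive for 6 genes and negative for 3, where 47.7% of all tested genes had a positive estimate, and the median log2 fold change (SG over SHAM) was 0.17, beside -0.01 over all tested genes. Leaving out SG 2 alone moved that median to -0.01. Adjusted p-values (edgeR, Benjamini-Hochberg over all tested genes) were 0.992 for 8 of the genes and 0.996 for Itih3.

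Crp, C-reactive protein, is a pentraxin that binds phosphocholine on damaged cells and bacteria. Its FPKM was 1915, 2744, 2009.6, 2688 and 1819 in SG 1 to SG 5 and 2290.2, 1873, 1682, 1842 and 1678 in SHAM 1 to SHAM 5. SG 2 and SG 4 lay above all SHAM libraries and the other 3 SG libraries lay within the SHAM range. On log2 CPM, SG 5 (11.15) lay below all SHAM libraries, of which the lowest was SHAM 5 (11.29). The log2 fold change was 0.17 ± 0.17 (SE; 95% interval -0.21 to 0.56), 0.084 without SG 4 and 0.086 without SG 2. Orm1 encodes alpha-1-acid glycoprotein, which carries drugs and lipids and modulates immune cells. Its FPKM was 202, 327, 308, 312 and 260.4 in SG and 319, 237, 239, 116 and 141 in SHAM. SHAM 4 and SHAM 5 stood lowest of the 10 libraries and only SG 2 exceeded SHAM 1. On log2 CPM, SG 4 (8.70) also exceeded SHAM 1 (8.68). For Orm1 the log2 fold change was 0.35 ± 0.26 (SE; interval -0.21 to 0.92), the largest positive estimate among the 9 genes, and 0.21 without SHAM 4.

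Saa4 encodes the constitutive serum amyloid A, an apolipoprotein of high-density lipoprotein. Its FPKM was 217, 492, 253, 330.0 and 299 in SG and 289, 294, 199, 169 and 231 in SHAM. SG 2, SG 4 and SG 5 exceeded every SHAM library, and SG 1 and SG 3 lay inside the SHAM range. On log2 CPM, SG 5 (9.25) lay below SHAM 1 (9.32) and SHAM 2 (9.34). The log2 fold change was 0.34 ± 0.23 (SE; interval -0.16 to 0.84) and 0.13 without SG 2. Saa4 had the smallest p of the 9 genes, an unadjusted 0.158 in edgeR.

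Haptoglobin and hemopexin bind what leaks from red blood cells, haptoglobin free hemoglobin and hemopexin free heme. Hp FPKM was 2739.8, 5279, 3012, 3816 and 2366 in SG and 3441, 3112, 2659, 2292 and 2740.0 in SHAM. SG 2 stood well above the rest, SG 4 came next, and the other SG libraries lay within the SHAM range. On log2 CPM, SG 5 (11.86) lay below all SHAM libraries, of which the lowest was SHAM 4 (12.08). The log2 fold change of Hp was 0.20 ± 0.24 (SE; interval -0.33 to 0.72), and -0.01 without SG 2. Hpx FPKM was 1465, 3916, 1375, 2498 and 1509 in SG and 2198, 1475, 1479.9, 2182 and 2068 in SHAM. Here 2 SG libraries exceeded all SHAM libraries while SG 1 and SG 3 lay below all of them. On log2 CPM, SG 5 (11.42) also lay below all SHAM libraries, of which the lowest was SHAM 2 (11.50). The log2 fold change of Hpx was 0.11 ± 0.32 (SE; interval -0.60 to 0.81), and -0.23 without SG 2. Hbb, the hemoglobin beta chain carried by red cells in the tissue, had 80.9, 47.4, 20.1, 90.1 and 56.8 FPKM in SG and 44.0, 46.6, 169, 213 and 109 in SHAM. It was highest in SHAM 3 and SHAM 4, where neither Hp nor Hpx was at its highest, and its part in their levels was not tested.

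Lbp and Lcn2 encode proteins that act on bacterial products. Lbp, lipopolysaccharide-binding protein, hands lipopolysaccharide to CD14. Its FPKM was 95.01, 116, 56.5, 78.5 and 73.3 in SG and 108, 82.0, 76.0, 63.8 and 86.1 in SHAM. The highest and the lowest value were both SG libraries, SG 2 and SG 3. Its log2 fold change was -0.07 ± 0.20 (SE; interval -0.51 to 0.36), -0.22 without SG 2 and 0.032 without SG 3. Lcn2, lipocalin 2, withholds iron from bacteria by binding their siderophores. Its FPKM was 0.88, 5.47, 1.86, 0.87 and 1.80 in SG and 1.46, 4.43, 2.91, 5.20 and 1.95 in SHAM, from estimated counts of 78 to 496 a library. SG 2 was the highest of all 10 libraries, and the other 4 SG libraries lay below all SHAM libraries but SHAM 1. On log2 CPM, SHAM 4 was the highest (2.70) and SG 2 came next (2.63). The log2 fold change was -0.65 ± 0.55 (SE; interval -1.87 to 0.57) with all libraries, -0.37 without SHAM 4 and -1.35 without SG 2. Without SG 2 the unadjusted p was 0.0115 and the adjusted p 0.993 (edgeR), so the gene was not called in either case.

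Itih3 and Itih4 encode heavy chains of the inter-alpha-trypsin inhibitor family, of which Itih3 is joined to hyaluronan in the matrix and Itih4 circulates on its own. Itih4 FPKM was 951, 1769, 1022, 1267 and 871 in SG and 1264, 1017, 823, 898 and 874 in SHAM. SG 2 was the highest, SG 4 and SHAM 1 were nearly level behind it, and the other 7 libraries lay between 823 and 1022. On log2 CPM, SG 5 (11.58) lay below all SHAM libraries, of which the lowest was SHAM 3 (11.77). The log2 fold change of Itih4 was 0.19 ± 0.22 (SE; interval -0.30 to 0.68), and -0.0052 without SG 2. Itih3 FPKM was 1043, 1155, 940.2, 1153 and 1088 in SG and 1225, 1066, 932, 832 and 1114 in SHAM. Its highest and lowest values were both SHAM libraries, SHAM 1 and SHAM 4, and every SG library lay between them. Its log2 fold change was -0.02 ± 0.14 (SE; interval -0.32 to 0.28), the closest to 0 of the 9 genes. It was -0.064 without SHAM 4, 0.022 without SHAM 1 and 0.066 in limma on FPKM, a scale on which the median of all genes was 0.08.

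**Figure D2:**
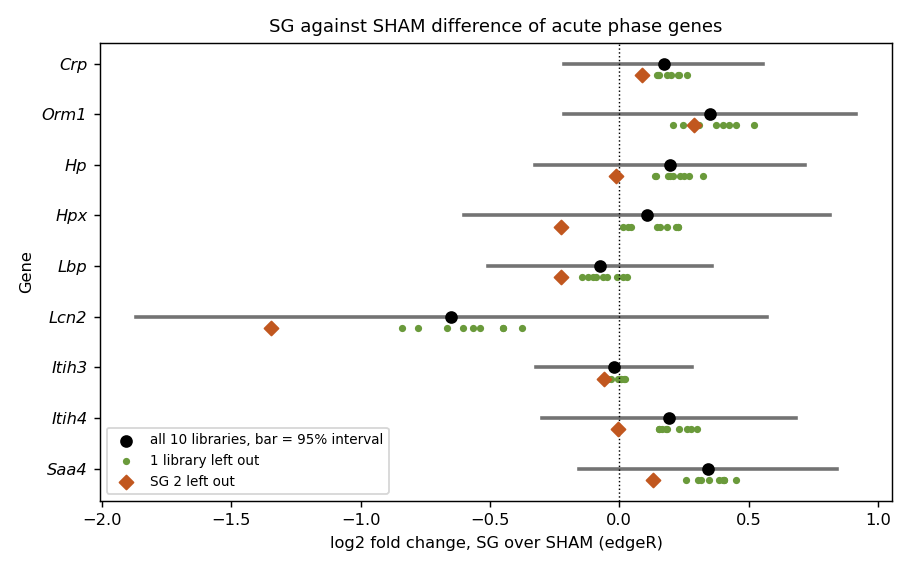
Log2 fold change of SG over SHAM from edgeR for each of the 9 measured genes (black points, with 95% intervals as lines), with the estimate without SG 2 below it as a diamond and those without each other library as small points. All intervals include 0, and Lcn2 has the widest, from -1.87 to 0.57.

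The intervals show what these libraries could tell. For 8 of the 9 genes, all but Lcn2, the 95% interval excluded changes of 2-fold or more in both directions, as it did for 84.3% of all tested genes. The median half-width of the 9 intervals was 0.50 on the log2 scale. In simulated counts of the same libraries, 100 of 11296 genes were changed 2-fold and another 100 were changed 4-fold. The test recovered 54% of the 2-fold changes and 94% of the 4-fold changes. It also called 5 unchanged genes. The counts were drawn gene by gene, so no simulated library deviated for many genes together as SG 2 did. Within groups, the SD of log2(FPKM + 0.5) exceeded the median of all tested genes, 0.25, for 7 of the 9. Lcn2 varied most, with an SD of 0.77, followed by Hpx with 0.51 and Orm1 with 0.47, and Itih3 varied least, with 0.18.

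The library SG 2 stood highest for most of these genes. By FPKM it held the highest value of the 10 libraries for 8 of 9 genes, where 16.0% of all tested genes were highest in that library, and by log2 CPM for 6 of 9, against 13.6% of all. SG 2 exceeded the median of the other 9 libraries 2.94-fold for Lcn2, 2.59-fold for Hpx, 1.94-fold for Saa4, 1.93-fold for Hp, 1.86-fold for Itih4, 1.48-fold for Lbp, 1.46-fold for Crp, 1.37-fold for Orm1 and 1.08-fold for Itih3. At the other end, SHAM 4 held the lowest FPKM for 4 of 9 genes. By log2 CPM, SG 5 was lowest for Crp, Hp, Hpx and Itih4, and SHAM 4 for Orm1, Itih3 and Saa4. The shares of all tested genes lowest in these libraries were not computed. The mean z-score of the 9 genes was 1.68 in SG 2, 0.61 in SHAM 1 and 0.55 in SG 4, and it was -0.79 in SHAM 4. The highest scores thus came from both groups.

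Values of other liver products and of cell markers in SG 2 are given beside these. The fibrinogen chains Fga, Fgb and Fgg, also positive acute phase genes, stood there at 2.26, 1.56 and 2.09 times the other 9 libraries' median. Socs3, the feedback inhibitor of interleukin-6 signalling, stood at 5.65 times and Cebpb, a C/EBP factor, at 0.89 times that median. Serpina1 and Mt1, also positive acute phase genes, lay within the range of the other libraries, at 2145 and 78.4 FPKM. All 10 hepatocyte markers passed the filter, and they did not move 1 way in SG 2. Cyp2e1, a cytochrome P450 of the hepatocytes around the central vein, Cps1 of the urea cycle and Tat, a tyrosine aminotransferase, had their lowest value of the 10 libraries there, at 895, 587 and 167 FPKM. Apob, the apolipoprotein of very low-density lipoprotein, had its highest, 1213 FPKM, and Alb, Ttr, Hnf4a, Asgr1, Asgr2 and Hal lay within the range of the other libraries. The summed FPKM of 11 Kupffer cell and macrophage markers was 543 in SG 2, 220 to 250.3 in the other SG libraries and 176 to 550.3 in SHAM. That of 10 neutrophil markers was 4.74 in SG 2, 1.71 to 3.77 in the other SG libraries and 0.722 to 2.26 in SHAM, with the defining marker Mpo at 0 in all 10 libraries. That of 9 stellate cell and fibroblast markers was 115 in SG 2, 44.4 to 62.7 in the other SG libraries and 34.4 to 68.1 in SHAM. The sum of the hepatocyte markers, most of it Alb, was 23566 in SG 2, at most 37706 in the other SG libraries and between 23055 and 32932 in SHAM. B and plasma cell markers summed to 64.1 in SG 2, 19.9 to 30.04 in the other SG libraries and 5.60 to 24.7 in SHAM, and endothelial markers to 97.4, 65.4 to 89.96 and 52.2 to 85.3. For T and NK cell markers the sum was 19.2 in SG 2, 9.83 to 10.5 in the other SG libraries and 8.45 to 22.6 in SHAM. Cholangiocyte markers (4.36 in SG 2) and red blood cell markers (49.2) lay within the range of the other libraries, and adipocyte markers summed to at most 0.4997 in any library, reached in SG 2. The part of these markers in the acute phase values was not tested.

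**Figure D3:**
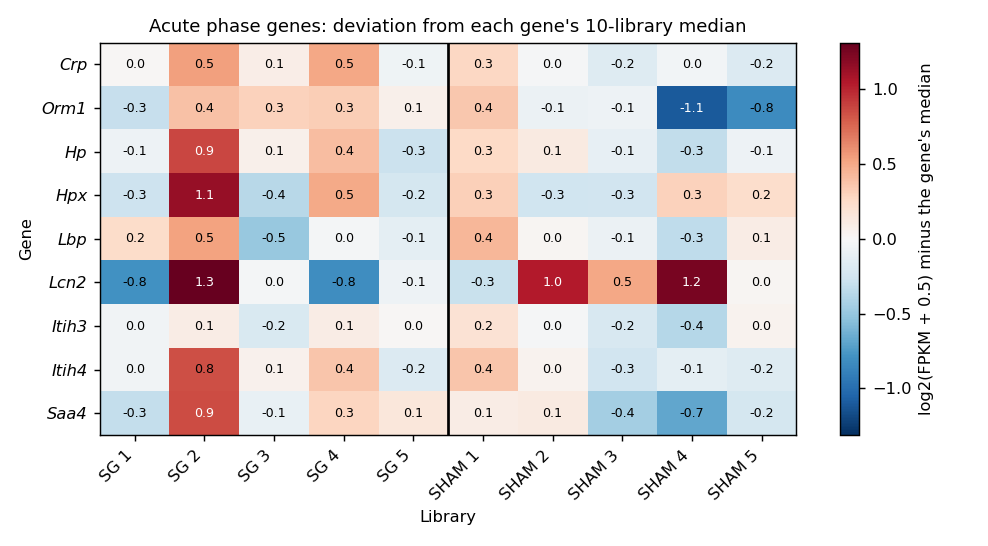
Heat map of the 9 measured genes (rows) over the 10 libraries (columns), coloured and numbered by log2(FPKM + 0.5) minus the gene's median over the 10 libraries, red above and blue below it. SG 2 lies above the median for 9 of 9 genes, SHAM 1 for 8 and SHAM 4 for 2.

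Most pairs of acute phase genes correlated positively across the 10 libraries, and a minority passed. Of 36 pairs, 32 had a positive Pearson's r on log2(FPKM + 0.5), the median r was 0.60, and 11 passed an adjusted p of 0.05 (permutation test, Benjamini-Hochberg over 36 pairs). By Spearman's rho 2 passed. The share of other gene pairs that would pass was not computed. Crp and Itih4 gave r = 0.94 and rho = 0.95, with adjusted permutation p-values of 0.00144 and 0.00324. That relation stayed at r = 0.95 without the 2 libraries farthest from the median of Crp, SG 2 and SG 4 (adjusted exact permutation p = 0.0286), and at 0.94 after the group means were removed. Hp and Itih4 gave r = 0.96 and rho = 0.88 (adjusted permutation p = 0.00288 and 0.0308), and r = 0.83 without the same 2 libraries, which no longer passed (adjusted exact permutation p = 0.153).

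The passing pairs below all had a lower r without the 2 libraries farthest from the median of 1 of their genes. Only 8 libraries then remained. Those left out were SG 2 and SG 4 for most pairs, and SG 2 and SG 3 for Lbp with Itih3. They were SHAM 3 and SHAM 4 for Itih3 with Saa4, and SHAM 4 and SHAM 5 for Orm1 with Saa4. Crp and Hp gave r = 0.88 (adjusted permutation p = 0.0084), and r = 0.65 without SG 2 and SG 4. Hp and Saa4 gave 0.86 and 0.56 in the same order, and Itih4 and Saa4 gave 0.84 and 0.52. For Hpx the fall was largest. Its r with Itih4 went from 0.80 to 0.25 and its r with Crp from 0.74 to 0.19. The other passing pairs were Crp with Saa4 (r = 0.77, and 0.43 without the 2 farthest libraries), Lbp with Itih3 (0.75 and 0.74), Itih3 with Saa4 (0.74 and 0.46) and Orm1 with Saa4 (0.73 and 0.66). In all, 1 of 36 pairs passed without the 2 farthest libraries and 5 of 36 after the group means were removed. Lcn2 passed with no other gene, and its r ran from -0.38 to 0.29.

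**Figure D4:**
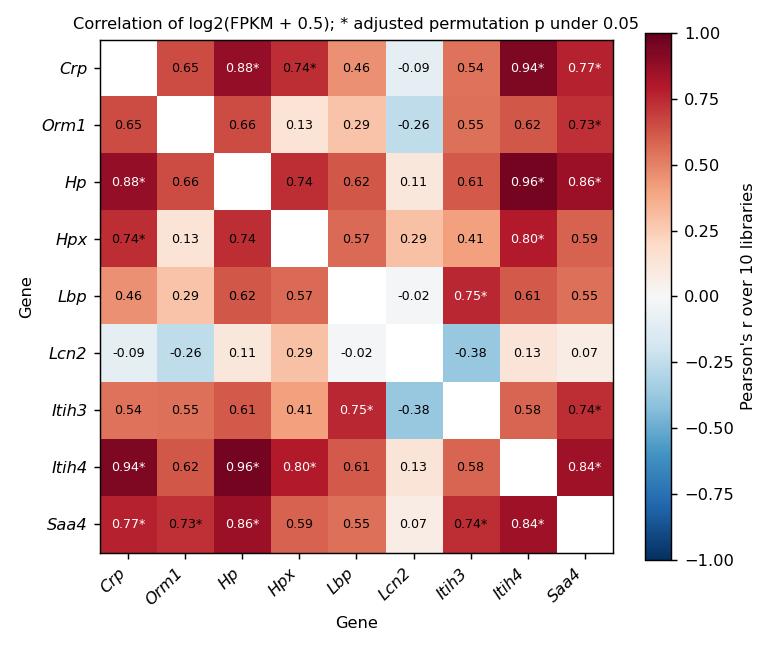
Pearson's r between each pair of the 9 measured genes over the 10 libraries, on log2(FPKM + 0.5), coloured from -1 to 1, with a star where the adjusted permutation p was under 0.05. Lcn2 stands apart with r between -0.38 and 0.29, while Crp, Hp, Itih4 and Saa4 have r between 0.77 and 0.96 with each other.

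Upstream of these genes, messenger RNA of interleukin-6 itself was at or near 0 and that of its receptor varied between libraries. Il6 was listed at 0 in 9 libraries and at 0.16 FPKM in SG 2. Of 30 genes of interleukin-6, interleukin-1 and tumor necrosis factor signalling, 25 were tested and 0 passed in edgeR, DESeq2 or limma. Estimates were positive for 14 and negative for 11, with a median log2 fold change of 0.05. Il6r, the ligand-binding receptor chain, had 9.48, 8.57, 12.5, 10.5 and 16.1 FPKM in SG and 13.8, 47.5, 24.2, 7.78 and 19.8 in SHAM. The groups overlapped, with SHAM 2 far above the rest and SHAM 4 the lowest of all. Its log2 fold change was -1.01 ± 0.37 (SE; unadjusted p = 0.0201, adjusted p = 0.992, edgeR) and -0.64 without SHAM 2. Il6st, which encodes gp130, had an estimate of -0.21 ± 0.20, and -0.12 without SHAM 2.

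Stat3, which carries the interleukin-6 signal to the nucleus, had 31.3, 63.8, 29.2, 37.7 and 35.8 FPKM in SG and 50.9, 35.1, 62.6, 39.4 and 40.3 in SHAM. The highest values, in SG 2 and SHAM 3, were nearly level, and the other 4 SG libraries were at 37.7 or below. Its log2 fold change was -0.31 ± 0.25 (SE), -0.55 without SG 2 and -0.14 without SHAM 3. Socs3 had 5.82, 32.9, 12.2, 3.81 and 4.71 FPKM in SG and 2.07, 7.64, 3.44, 10.6 and 8.07 in SHAM. SG 2 held the highest value by far, and without it the Socs3 estimate moved from 0.81 ± 0.66 (SE) to -0.04.

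Of 13 transcription factors of acute phase genes, 0 passed, with 10 positive and 3 negative estimates and a median log2 fold change of 0.15. Cebpb, a C/EBP factor of the interleukin-6 and interleukin-1 response, had 15.7, 14.0, 8.07, 16.0 and 10.7 FPKM in SG and 13.4, 26.9, 26.3, 21.4 and 13.1 in SHAM. SHAM 2, SHAM 3 and SHAM 4 lay above all SG libraries, and SHAM 1 and SHAM 5 lay among them. Its log2 fold change was -0.74 ± 0.27 (SE; unadjusted p = 0.0198, adjusted p = 0.992, edgeR). Cebpd, its relative that is strongly induced in the acute phase, had 2.33, 5.23, 2.03, 2.60 and 1.60 FPKM in SG and 2.22, 2.93, 2.95, 2.21 and 2.25 in SHAM. Apart from SG 2 its libraries lay close together, and its estimate was 0.05 ± 0.31 (SE) with SG 2 and -0.32 without. Hnf4a, Cebpa and Creb3l3, factors of the hepatocyte at rest and in stress, had estimates of -0.07 ± 0.14, -0.39 ± 0.24 and 0.06 ± 0.11, which were 0.022 without SHAM 1 for Hnf4a, -0.23 without SHAM 3 for Cebpa and 0.019 without SG 1 for Creb3l3. Fos, part of the AP-1 factor, had 0.87 ± 0.42 (SE), and 0.43 without SG 2.

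No regulator passed with any acute phase gene. Among 36 pairs of a measured acute phase gene with Socs3, Stat3, Cebpb or Cebpd, 0 passed by Pearson's r or Spearman's rho. The highest r was that of Cebpd with Hp, 0.79 (rho = 0.50, adjusted permutation p = 0.437 for r), which was 0.14 without SG 2 and SG 5. Stat3 and Hpx gave r = 0.57 with all libraries and 0.74 without SG 2 and SHAM 3. Socs3 and Lcn2 gave r = 0.62, and 0.41 without SG 2 and SHAM 1.

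None of the other positive acute phase genes passed either. Of 34 listed, 24 were tested and 0 passed in edgeR, DESeq2 or limma. Estimates were positive for 17 and negative for 7, with a median of 0.11, which was -0.03 without SG 2. Apcs encodes serum amyloid P component, the pentraxin most like Crp. Its FPKM was 148, 213, 146, 181 and 208 in SG and 128, 133, 100.05, 136 and 109 in SHAM. By FPKM every SG library exceeded every SHAM library, as for 1.27% of all tested genes in that direction, whereas Crp overlapped between the groups. On log2 CPM, SHAM 4 lay above SG 1 and SG 3 for Apcs, so the groups overlapped on that scale. The log2 fold change of Apcs was 0.47 ± 0.13 (SE; unadjusted p = 0.00532, adjusted p = 0.992, edgeR), so it was not called. Fgb had 0.18 ± 0.20, C3, the central complement protein, 0.06 ± 0.23 and Serpina1, which inhibits neutrophil elastase, -0.08 ± 0.18. Mbl1, a mannose-binding lectin, had 0.16 ± 0.10, and Mt1, a metallothionein that binds zinc, -0.61 ± 0.38. Several of these estimates moved when 1 library was left out, to 0.018 without SG 2 for Fgb, -0.12 without SG 2 for C3, -0.025 without SG 3 for Serpina1 and -0.39 without SHAM 5 for Mt1. A2m ran from 0.01 to 2.15 FPKM over the libraries, with a mean under the 1 FPKM needed for the test.

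Negative acute phase genes, which fall in inflammation, gave 0 passing of 13 tested, with 6 positive and 7 negative estimates and a median of -0.05. Alb had an estimate of 0.16 ± 0.22, Ttr, the thyroxine carrier transthyretin, 0.10 ± 0.19 and Tf, the iron carrier transferrin, -0.05 ± 0.20. Gc, the vitamin D-binding protein, had 0.41 ± 0.20 (SE; unadjusted p = 0.0658, edgeR), Hrg, histidine-rich glycoprotein, -0.35 ± 0.24, and Igf1 0.23 ± 0.26. With 1 library left out these estimates ran from 0.090 to 0.26 for Alb, from -0.028 to 0.19 for Ttr, from -0.15 to 0.035 for Tf, from -0.49 to -0.21 for Hrg and from 0.11 to 0.45 for Igf1, and the lowest of Igf1 was without SG 2.

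Other genes of the inter-alpha-trypsin inhibitor family gave 0 passing of 3 tested, all with positive estimates. Ambp, the precursor of bikunin, which the heavy chains bind, had 0.20 ± 0.16 (SE). Itih1 and Itih2, the chains of inter-alpha-inhibitor, had 0.22 ± 0.23 and 0.06 ± 0.16, beside the values of Itih3 and Itih4 above. Without SG 2 these were 0.13 for Ambp, 0.064 for Itih1 and -0.017 for Itih2. The close copies of Serpina3n, protease inhibitors that lie in 1 cluster, gave 0 passing of 3 tested. LOC299282 had 0.20 ± 0.20 (0.10 without SG 2), Serpina3c 0.15 ± 0.17 (0.072 without SG 4) and Serpina3m 0.14 ± 0.22 (-0.033 without SG 4), each with its SE. Reads from near-identical copies can be split between them, so their values are uncertain and do not stand in for Serpina3n.

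Receptors and partners of the proteins gave 0 passing of 14 tested, with 5 positive and 9 negative estimates and a median of -0.21. Cd163, the macrophage receptor for haptoglobin bound to hemoglobin, had -0.19 ± 0.23, -0.41 without SG 2 and -0.013 without SHAM 5. Lrp1, the receptor for hemopexin bound to heme, had 0.33 ± 0.20, and 0.18 without SG 2. Hbb had -1.11 ± 0.53 (SE; unadjusted p = 0.0622, edgeR). Fcgr3a, an Fc receptor of the kind that binds pentraxins, had -0.87 ± 0.48, and -0.20 without SHAM 5, the library with its highest value, 9.51 FPKM.

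Isoform rows gave a further view of how the gene values were made. Of 22 isoforms counted for the 9 genes, 15 matched a reference transcript and 7 were assembled with a shared junction. Orm1, Hpx, Lbp and Lcn2 had 1 isoform each. Crp, Hp and Itih4 had 2, of which 1 held nearly all of the signal: 99.5% to 99.8% for Crp, 99.4% to 99.7% for Hp and 98.2% to 99.5% for Itih4. The leading Hp isoform was an assembled one with 5 exons of 1354 nt (Rnor_6.0, chr19:42096097-42100804, plus strand), not the reference transcript. Saa4 was split between a reference isoform, with 54.4% to 59.0% of its FPKM, and an assembled isoform over the same span, with 39.9% to 44.8%. The share of the leading isoform did not pass between groups for any of these 5 genes, Itih3 included (exact permutation test over 252 splits, two-sided, adjusted p from 0.754 to 0.937, where the smallest possible unadjusted p is 0.00794).

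Itih3 was the gene whose isoforms differed most between libraries. An assembled isoform of 2878 nt held 961, 67.7, 18.5, 1097 and 1018 FPKM in SG and 1115, 596, 891, 10.4 and 1010.4 in SHAM. A reference isoform of 3009 nt held 940.4 FPKM in SG 2 and 737 in SHAM 4 and no more than 25.1 elsewhere. A second assembled isoform, also of 3009 nt, held 915 FPKM in SG 3 and no more than 0.0124 elsewhere. The leading isoform of Itih3 was thus another one in SG 2, SG 3 and SHAM 4 than in the other 7 libraries, while the gene sum ran only from 832 to 1225. These isoforms overlap (Rnor_6.0, chromosome 16, from 6992026, minus strand), so their shares rest on the estimate by which common reads were divided, and the part of that estimate in the split was not tested.

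**Figure D5:**
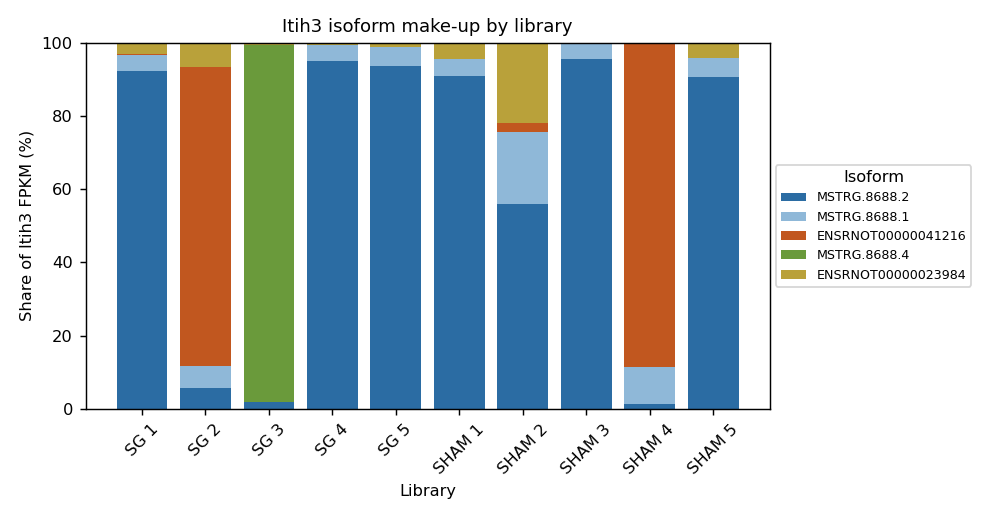
Stacked bars of the share of Itih3 FPKM held by each of its 5 counted isoforms in each of the 10 libraries (vertical axis from 0 to 100 percent). An assembled isoform leads in 7 libraries. A reference isoform holds most of SG 2 and SHAM 4, and a different assembled isoform holds most of SG 3.

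Itih3 and Itih4 lie side by side on chromosome 16, 6447 bases apart and on opposite strands, with Itih4 at chr16:6970342-6985579 (Rnor_6.0, plus strand, 23 exons). Across the 10 libraries their levels were near equal on average and parted most in SG 2, where Itih4 reached 1769 FPKM and Itih3 1155. The other main isoforms were placed by the deposited coordinates, all in Rnor_6.0, at chr13:91080341-91081629 for Crp (plus strand, 2 exons), chr5:79179417-79182820 for Orm1 (plus, 6 exons), chr1:170423483-170431073 for Hpx (minus, 10 exons), chr3:154786215-154813464 for Lbp (plus, 15 exons), chr3:11414186-11417546 for Lcn2 (minus, 6 exons) and chr1:102776082-102780381 for Saa4 (minus, 4 exons).

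The 3 tested genes outside the 9 whose profile was most like their mean z-score over the 10 libraries were Wfdc21 (r = 0.95), C4bpa (r = 0.93) and Marveld1 (r = 0.92). Wfdc21 had 6.27, 33.4, 5.04, 10.1 and 3.87 FPKM in SG and 11.5, 5.77, 6.31, 3.06 and 4.001 in SHAM. C4bpa, a regulator of complement, had 249.6, 548, 232, 279 and 209 FPKM in SG and 399.6, 266, 251, 209 and 259 in SHAM. Both were highest in SG 2, followed by SHAM 1, and overlapped between the groups. These r values are descriptions, since the genes were picked for them.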

How the data were processed

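Ribosomal RNA was depleted from about 5 µg of liver total RNA with an RNA integrity number above 7.0, and paired-end libraries with an insert of 300 ± 50 bp were read on an Illumina sequencer according to the labels' protocols. Per the submitters' processing notes, the tools were HISAT2 2.0.4, StringTie 1.3.4, cutadapt 1.9 and FastQC 0.10.1, with the build Rnor_6.0. The authors deposited FPKM and estimated counts of 51430 isoforms in each library, per the file headers. Because isoforms share reads by estimate, p-values from the counts rest on estimates. The estimated counts of a library summed to between 77617460 and 92110190 in SG and between 65824088 and 85520959 in SHAM.

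Groups came from the labels. Isoform values were summed by gene, splitting the 120 names found on more than 1 chromosome. Genes with a mean of at least 1 FPKM were tested on rounded sums with edgeR 4.0.16 (R 4.3.3) by the quasi-likelihood test, with trimmed mean of M values scaling, two-sided p-values and Benjamini-Hochberg adjustment over all 11296 genes. Standard errors came from the F statistic. The test was checked on simulated counts. Limma 3.58.1 on log2(FPKM + 0.5) and DESeq2 1.42.0 were alternatives, beside other pseudocounts, TPM scaling, no filter, reference isoforms only, a replicate block and each library left out. Correlations used 100000 permutations, all 40320 orders for 8 libraries, or 14400 permutations within groups. The plan named 45 pairs, and 36 could be formed from 9 genes.

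The members, the 7 pathway lists and the 10 marker lists were chosen with earlier results of these data known. Named genes were the members, the 3 most abundant and the 3 with the smallest p of each pathway list, Socs3, Stat3, Cebpb and Cebpd, and the 3 genes most like the members. A2m, Il6, Fga, Fgg, Cyp2e1 and the other hepatocyte markers were named after their values were seen. Promoter sequences are from RefSeq (GRCr8), and no coordinates were converted between builds. Same-numbered SG and SHAM libraries did not deviate together, so the numbers were not taken as pairs.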

Additional observations from a re-analysis of the deposited data

Results flagged for a closer look

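In 88 groups of 5 libraries, 9 held a library whose gap to its nearest neighbour, relative to the range, exceeded Dixon's critical value of 0.71. The groups covered the measured members, Socs3, Stat3, Cebpb, Cebpd and the pathway list genes named for abundance or smallest p. Other listed or named genes were not examined in this way. Among those left out, Fga, C4bpa and Wfdc21 were also highest in SG 2. Chance flags about 1 in 20 such groups, and genes that vary together are not independent. SG 2 held 6 of the 9. Among the members, Lcn2 stood out in SG 2 with 5.47 FPKM, where the remaining SG libraries lay between 0.87 and 1.86. The other SG 2 values were 3188 FPKM for Fgb, 82.1 for Tnfrsf1a, the receptor of tumor necrosis factor, 63.8 for Stat3, 150.4 for Cd163 and 5.23 for Cebpd. SHAM 1 held the other high values of hepatocyte genes, 42.7 FPKM for Igf1 and 180.8 for Hnf4a, and SHAM 5 held 1.41 FPKM for Fos.

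One row that was not counted gave a signal in 1 group. An assembled transcript of 2 exons on the strand opposite to Hp (Rnor_6.0, chr19:42100318-42100646) had 47.4 FPKM in SG 2 and at most 0.00275 in the other libraries. SG 2 was also the library with the most Hp. The cause was not tested.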

How the results depend on the processing

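Over 20 alternative settings, the 9 members gave 180 fits, of which 0 were called, 163 kept their direction and 17 reversed. Without SG 2 and SHAM 5 together, a setting chosen after seeing the data, log2 fold changes reversed for Hp (-0.015), Hpx (-0.18), Itih4 (-0.031), C3 (-0.099), Ttr (-0.044), Igf1 (-0.0075) and Cebpd (-0.35). On TPM in limma they reversed for Hpx (-0.016) and Cebpd (-0.073). On FPKM in limma, at each pseudocount, they reversed for Itih3 (0.066), Serpina1 (0.019), Tf (0.049), Tnfrsf1a (0.042) and Hnf4a (0.018), where the median of all genes was 0.08. With reference isoforms only, Itih1 reversed (-0.36), and Il6r and Socs3 gave no value. In that setting Hp was represented by a transcript that held only 0.27% to 0.57% of its FPKM. For Itih3, the share of the reference isoform of 3009 nt ran from 0.011% to 88.5% over the libraries. With the replicate number as a block, Hpx (-0.020) and Cebpd (-0.073) reversed, 0 genes were called and 456 had an unadjusted p under 0.05, beside 512 without it. Same-numbered libraries had r from -0.22 to 0.14 between their deviations, and 1 of 5 SG libraries correlated best with its own number.

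Leaving out 1 library at a time gave ranges of -0.013 to 0.32 for Hp, -0.23 to 0.23 for Hpx, -0.22 to 0.032 for Lbp, -0.064 to 0.022 for Itih3, -0.0052 to 0.30 for Itih4, -0.12 to 0.16 for C3, -0.15 to 0.035 for Tf, -0.028 to 0.19 for Ttr, -0.017 to 0.17 for Itih2, -0.26 to 0.082 for Tnfrsf1a, -0.13 to 0.022 for Hnf4a, -0.033 to 0.24 for Serpina3m, -0.036 to 1.10 for Socs3 and -0.32 to 0.21 for Cebpd. The median of the negative acute phase genes ran from -0.082 to 0.19. Genes called over all tested ran from 0 to 1, with 1 without SG 5 and 1 without SHAM 1, and those at an unadjusted p under 0.05 from 405 to 653.

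DESeq2 called 19 genes, none of them a member, and edgeR called 1 without SG 2 and SHAM 5 together. At an unadjusted p under 0.05, limma on TPM gave 328 genes and edgeR without a filter 927. Pairs of members passing fell from 11 to 7 on log2 CPM, 1 without the 2 farthest libraries, 5 on group-centred values and 3 with reference isoforms only. The cause was not tested. Among the members, Lcn2 had the fewest estimated counts, 78 to 496 a library.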

Other observations

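Some isoform rows carried the symbols of acute phase genes and were not counted, because they lie in introns or on the opposite strand. They numbered 8, of which 2 were intronic and 6 on the opposite strand. A single-exon transcript of 408 nt began 279 bases beyond the end of the main Crp isoform, on the same strand (Rnor_6.0, chr13:91081908-91082315). It had 255, 225, 229, 221 and 193 FPKM in SG and 227, 170, 170, 158 and 174 in SHAM. SG 1 held its highest value although Crp itself was highest by FPKM in SG 2, and the groups overlapped. A transcript of 2 exons on the strand opposite to the start of Hp (Rnor_6.0, chr19:42092065-42097998) ran from 13.6 to 53.0 FPKM over the libraries. It was highest in SG 3, where Hp stood at 3012 FPKM, and lower in SG 2, where Hp stood at 5279.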
